A study of Homo sapiens with 6 samples.

Results

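The ABC transporters are the genes of the ATP-binding cassette superfamily. Members were chosen by symbol (ABCA, ABCB, ABCC, ABCD and ABCG followed by a number, ABCE1, and ABCF1 to ABCF3), which gave 46 of the 53826 entries in each table. Of these, 44 are described here, and 30 of the 44 were above the floor of the tables (a log2 value of 0, or 1 TPM) in at least 1 of the 6 libraries. RNA-seq had been carried out on 2 stable lines made by retroviral transduction of A549, a human lung adenocarcinoma cell line, with 3 libraries per line. A549-GFP cells carried a pMXs vector with GFP, and A549-TIPARP cells carried the same vector with TIPARP, an enzyme that attaches single ADP-ribose units to proteins and is induced through the aryl hydrocarbon receptor. The comparison asks which transcripts differ between cells that overexpress TIPARP and control cells. Whether a line came from 1 clone, and whether the 3 libraries of a line came from separate cultures, is not given in the sources used here, so p-values measure only the spread between these libraries.

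ABC proteins couple the hydrolysis of ATP to movement. Most sit in a membrane and carry a substrate across it, out of the cell or into an organelle, and several members of the C subfamily, together with ABCB1 and ABCG2, are known for pumping drugs and their conjugates out of tumour cells. The A subfamily mostly moves lipids, the D subfamily serves peroxisomes and lysosomes, and the E and F subfamilies have no membrane part and act on ribosomes. In the alveolar epithelium, from which A549 is derived, ABCA3 loads surfactant phospholipids into lamellar bodies.

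TIPARP itself was at 6.79, 11.4 and 3.68 TPM in A549-GFP replicates 1 to 3 and at 131, 90.5 and 123 TPM in A549-TIPARP replicates 1 to 3. The mean log2 TPM was higher by 4.11 in A549-TIPARP, and limma gave an adjusted p of 0.0125, which ranged from 0.0331 to 0.192 when 1 library was left out and was under 0.05 only without A549-GFP replicate 2. It was 0.513 with a replicate block, 0.0965 without the filter on low values and 0.0550 on log2(TPM + 0.1). All 10 A549 epithelial markers were above the floor in every library, and none of 5 endothelial markers was. Of 5 mesenchymal markers only COL1A1 was above the floor, at no more than 2.56 TPM, and of 4 blood cell markers CD68 and HBB were, HBB at no more than 1.06 TPM. A549-GFP replicate 2 stood apart, with a median shift of its genes of 0.27 on the log2 scale against the mean library, while the other 5 libraries lay between -0.19 and 0.03. In that library the A549 markers summed to 28727 TPM, against 40313 to 44192 TPM elsewhere, although of the 10 it was the highest library for 3 and the lowest for 4. In it CD68 was at 68.1 TPM, against 25.0 to 36.0 TPM elsewhere. The part of these differences in the results on ABC transporters was not tested. TPM carries no depth, so the depth of each library and the counting error are unknown, and in bulk RNA fewer cells that transcribe a gene cannot be told apart from less RNA per cell.

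Promoters are shown for the members whose lines did not overlap (ABCC4 and ABCA2), for ABCC2, the member with the highest geometric mean in A549-GFP, and for ABCA1, a textbook target of the sterol-sensing liver X receptors. RefSeq (GRCh38.p14) promoters were found for 35 of the 44 members, and for 25 of the 30 above the floor. Those above the floor that were not matched were ABCB4, ABCC1, ABCC3, ABCC8 and ABCG1, and those at the floor were ABCA4, ABCA8, ABCB5 and ABCC13. The ABCA2 window is the first of 2 in the table. Windows hold the 250 bases before the RefSeq start, 5′ to 3′ on the strand of the gene, less 24 bases of ABCC4 that GENCODE 44 places inside the gene. They lie at chr13:95301476-95301701 (minus strand) for ABCC4, chr9:137028923-137029172 (minus strand) for ABCA2, chr10:99782390-99782639 (plus strand) for ABCC2 and chr9:104928156-104928405 (minus strand) for ABCA1. Capitals mark matches, on either strand, to GCGTG (the core bound by the aryl hydrocarbon receptor), TGACNNNGC (the core of antioxidant response elements) or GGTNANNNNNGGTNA (a direct repeat of the kind bound by liver X receptors).
ABCC4: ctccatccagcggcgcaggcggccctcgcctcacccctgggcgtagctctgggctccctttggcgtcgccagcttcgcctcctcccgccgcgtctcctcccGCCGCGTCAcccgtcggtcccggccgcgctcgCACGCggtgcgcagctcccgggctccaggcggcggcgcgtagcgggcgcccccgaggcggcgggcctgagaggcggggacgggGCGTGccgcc
ABCA2: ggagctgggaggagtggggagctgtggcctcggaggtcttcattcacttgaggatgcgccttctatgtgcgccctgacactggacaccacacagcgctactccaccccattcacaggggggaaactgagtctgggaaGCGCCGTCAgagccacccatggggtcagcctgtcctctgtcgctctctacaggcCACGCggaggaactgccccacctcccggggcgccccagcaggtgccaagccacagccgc
ABCC2: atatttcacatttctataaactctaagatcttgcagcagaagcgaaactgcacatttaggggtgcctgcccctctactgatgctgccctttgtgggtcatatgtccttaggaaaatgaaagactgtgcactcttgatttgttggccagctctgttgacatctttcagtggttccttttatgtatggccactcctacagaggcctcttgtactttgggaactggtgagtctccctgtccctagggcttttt
ABCA1: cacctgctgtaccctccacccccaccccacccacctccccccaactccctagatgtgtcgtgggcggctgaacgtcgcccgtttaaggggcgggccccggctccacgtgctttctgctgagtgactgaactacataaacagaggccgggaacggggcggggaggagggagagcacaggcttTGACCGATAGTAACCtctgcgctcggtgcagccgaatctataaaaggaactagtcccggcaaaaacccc
In these windows ABCC4 held 2 matches to GCGTG and 1 to TGACNNNGC, ABCA2 held 1 of each, ABCC2 held none, and ABCA1 held the direct repeat, 69 to 55 bases before its start.

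The GCGTG core is short and common. It was present in 32.2% of all 35116 promoter windows and in 21 of the 53 windows of ABC transporters (39.6%), which belong to 16 of the 35 genes. TGACNNNGC was present in 10.9% of all windows and in 9 of the 53 (17.0%). The direct repeat was present in 0.533% of all windows and in that of ABCA1 alone among members. These matches are descriptions of the sequence and no measure of binding.

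Drug and conjugate pumps made up most of the summed TPM of the 44 members in each library. They summed to 501, 786 and 392 TPM in A549-GFP and to 485, 465 and 681 TPM in A549-TIPARP. The levels of the 30 members in each library are drawn by role, and they span from the floor to 405 TPM. Of these, 2 had a geometric mean over the 6 libraries above 100 TPM, 12 had one above 20 TPM and 24 had one above 2 TPM. ABCC1, ABCC2 and ABCC3 together took 46.5%, 58.7% and 44.7% of the summed TPM of the 44 members in A549-GFP replicates 1 to 3, and 49.3%, 46.2% and 59.2% in A549-TIPARP replicates 1 to 3. The summed TPM of these members was 927, 1201 and 753 in A549-GFP and 843, 851 and 1013 in A549-TIPARP, so the ranges of the lines overlapped.

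**Figure D1:**
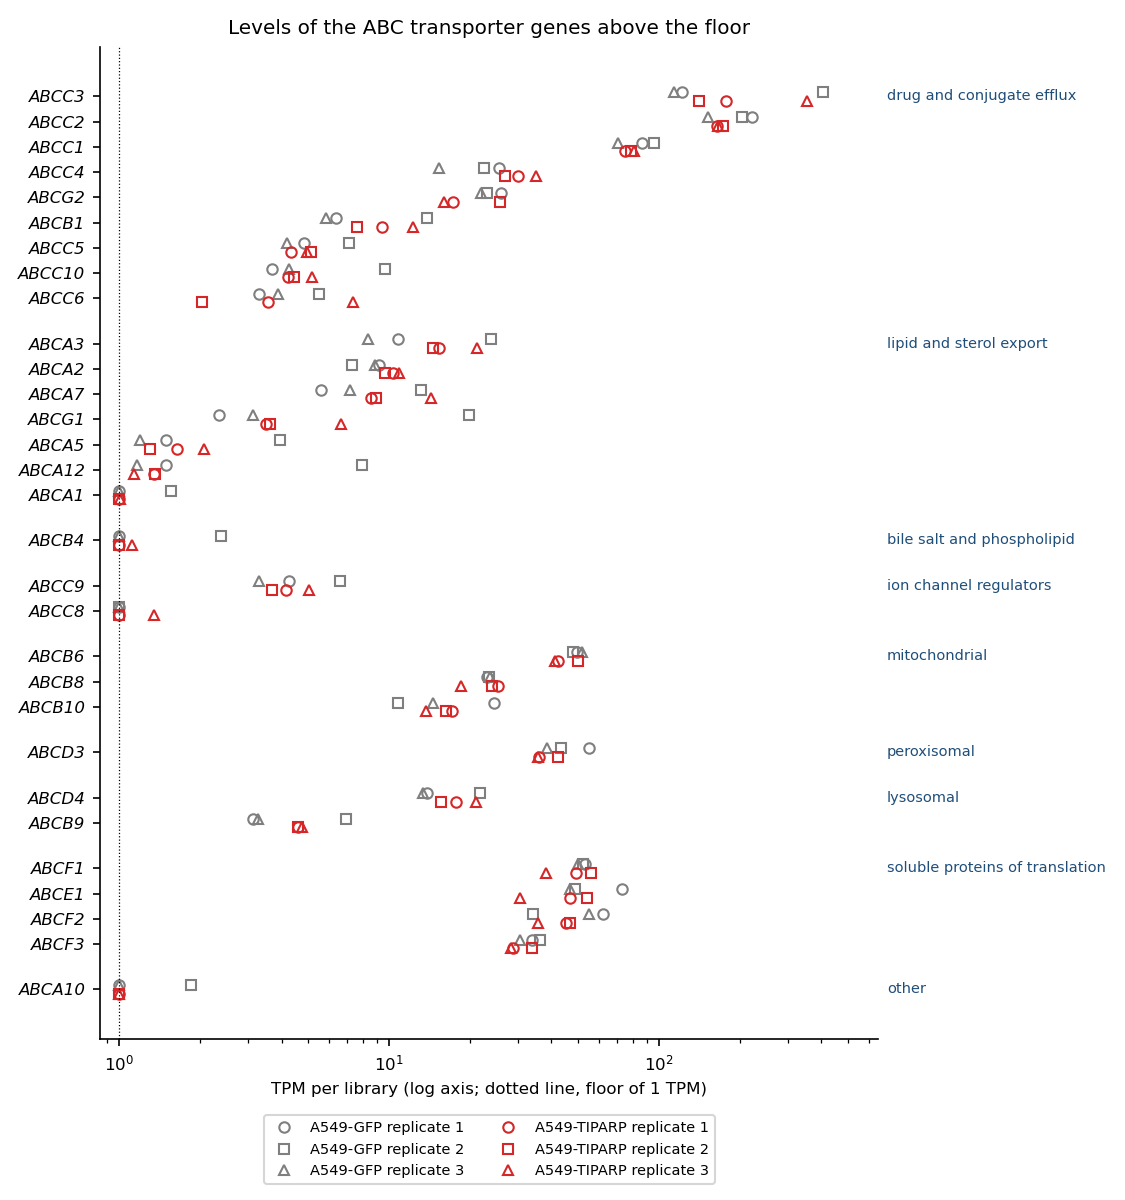
TPM (log axis) of each ABC transporter gene above the floor in at least 1 library, grouped by role. Grey symbols are the 3 A549-GFP libraries and red symbols the 3 A549-TIPARP libraries, and the dotted line is the floor of 1 TPM. ABCC3, ABCC2 and ABCC1 lie highest, and the grey square (A549-GFP replicate 2) lies to the right of the other symbols for many of the less abundant members.

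The other 14 members were listed at the floor in all 6 libraries. They were ABCA4, ABCA6, ABCA8, ABCA9, ABCA13, ABCB5, ABCB11, ABCC11, ABCC12, ABCC13, ABCD2, ABCG4, ABCG5 and ABCG8. They include the bile salt export pump (ABCB11), the retinal transporter of photoreceptors (ABCA4) and the sterol transporter of liver and gut (ABCG5 with ABCG8). A further 3 members were above the floor but never above 2 TPM and were not tested. ABCA1, which passes cholesterol to apolipoprotein A-I, was at 1.56 TPM in A549-GFP replicate 2 and 1.01 TPM in A549-TIPARP replicate 3. ABCA10 was at 1.85 TPM in A549-GFP replicate 2, and ABCC8, the sulfonylurea receptor of pancreatic beta cells, was at 1.34 TPM in A549-TIPARP replicate 3.

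Tests covered the 27 members with TPM above 2 in at least 1 library, out of 13181 such entries. Of the 27, ABCA12 and ABCB4 passed this filter only through A549-GFP replicate 2, and ABCA5 only through that library and A549-TIPARP replicate 3. No member had an adjusted p under 0.05 by limma, where 0.0152% of all tested entries did (2 entries). The adjusted p of the members lay between 0.994 and 0.998. At an unadjusted p under 0.05 limma gave 1 member, ABCC4, against a background of 3.85% of all tested entries, and 0 members in a fit with a replicate block by experiment number, where 3.14% of all tested entries did so. With 1 library left out at a time, the difference in mean log2 TPM turned direction for 12 of the 27 members and moved by over 1.5 times, in at least 1 case, for each of the other 15. The share of all tested entries that did so was not computed, so these counts are not read as particular to the members. All 3 A549-TIPARP libraries lay above all 3 A549-GFP libraries for 2 members (ABCC4 and ABCA2), where 5.36% of all tested entries did so. They lay below for 0 members, where 3.54% of all tested entries did so.

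Most estimated differences in mean log2 TPM were under 1.5-fold, but several were imprecise. On the log2(TPM + 1) scale the 95% intervals of limma ran from -1.71 to 1.15 for ABCG1 and from -1.79 to 0.43 for ABCA12. Larger differences are thus not excluded. With all 6 libraries ABCA12 was the 1 member past 1.5-fold in the lower direction (3.02% of all tested entries). In the higher direction 0 members were past it (5.70% of all tested entries), and no member was past 2-fold. ABCA12 was past 2-fold lower without A549-GFP replicate 1 or 3, and by arithmetic means of TPM. The mean was higher in A549-TIPARP for 8 members and lower for 19 (70.4%), where it was lower for 59.9% of all tested entries. The median difference over the 27 members was -0.14 on the log2 scale, beside -0.07 over all tested entries, and the median size of the difference was 0.21 beside 0.19. Nothing in these counts is read as particular to the superfamily.

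**Figure D2:**
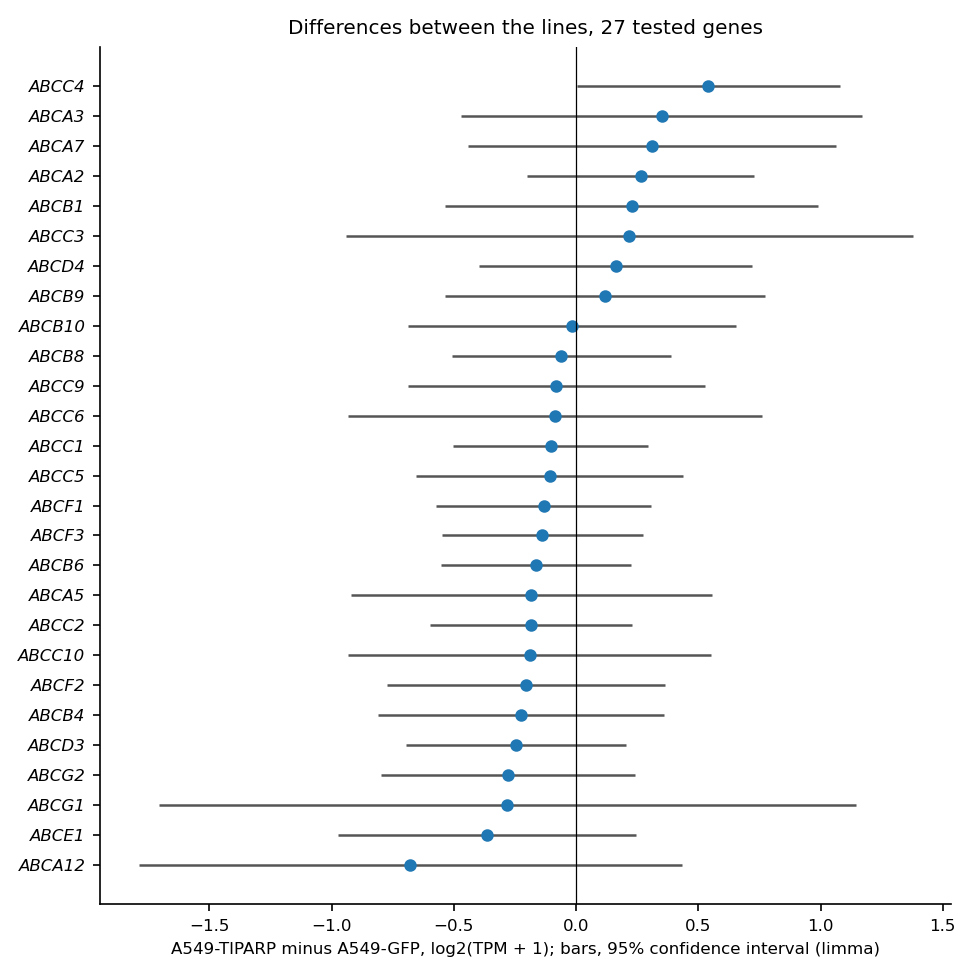
Difference between the lines (A549-TIPARP minus A549-GFP) on the log2(TPM + 1) scale for the 27 tested ABC transporter genes, ordered by size, with 95% confidence intervals from limma across 3 libraries per line. The interval of ABCC4 lies just above 0, from 0.004, and the intervals of the other 26 members include 0.

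ABCC4 exports cyclic nucleotides and prostaglandins and lies at chr13:95019835-95301475 (minus strand, hg38). It was at 25.6, 22.4 and 15.3 TPM in A549-GFP replicates 1 to 3 and at 29.9, 27.0 and 35.1 TPM in A549-TIPARP replicates 1 to 3. Each A549-TIPARP library was higher than each A549-GFP library, by a narrow margin between the nearest of them. The mean log2 TPM was 4.37 ± 0.39 (SD, n = 3 libraries) in A549-GFP and 4.93 ± 0.19 (SD, n = 3 libraries) in A549-TIPARP, a 1.48-fold difference. By limma the difference was 0.54 with a standard error of 0.24, an unadjusted p of 0.0488 and an adjusted p of 0.994.

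ABCC3, which exports glucuronide conjugates across the basolateral membrane, was at 122, 405 and 114 TPM in A549-GFP and at 178, 141 and 354 TPM in A549-TIPARP. A549-GFP replicate 2 and A549-TIPARP replicate 3 were each far above the other 2 libraries of their line. The difference in mean log2 TPM was 0.22, with a 95% interval of limma on the log2(TPM + 1) scale from -0.94 to 1.38, the widest of the 10 most abundant members. Its direction depended on the libraries used, with 0.81 without A549-GFP replicate 2, -0.17 without A549-TIPARP replicate 3, and -0.051 and -0.10 without A549-GFP replicate 1 or 3.

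ABCC2, the apical exporter of glutathione and glucuronide conjugates, was at 222, 204 and 153 TPM in A549-GFP and at 164, 173 and 165 TPM in A549-TIPARP. The A549-TIPARP libraries lay close together inside the range of A549-GFP. ABCC1, a broad exporter of glutathione conjugates, was at 86.8, 95.6 and 70.8 TPM in A549-GFP and at 74.6, 78.6 and 80.7 TPM in A549-TIPARP, again inside the range of A549-GFP. The differences were -0.19 for ABCC2 and -0.10 for ABCC1 on the log2 scale, and the 95% intervals of limma ran from -0.60 to 0.23 and from -0.50 to 0.30. Leaving out 1 library put them between -0.35 (A549-GFP replicate 3 removed) and -0.075 (A549-GFP replicate 1 removed) for ABCC2, and between -0.23 (A549-GFP replicate 3 removed) and -0.0085 (A549-GFP replicate 2 removed) for ABCC1. In the order of levels ABCC3 and ABCC2 overlapped each other, and ABCC1 lay below every library of both.

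ABCG2, the breast cancer resistance protein, was at 26.1, 23.0 and 21.9 TPM in A549-GFP and at 17.3, 25.8 and 16.0 TPM in A549-TIPARP. ABCB1, or P-glycoprotein, was less abundant, at 6.34, 13.8 and 5.83 TPM in A549-GFP and at 9.38, 7.61 and 12.3 TPM in A549-TIPARP. The lines overlapped for both, with differences of -0.29 and 0.26 on the log2 scale, which ranged from -0.50 to -0.16 and from 0.034 to 0.66 with 1 library left out. Both were named after their values were seen, as were the other members described below that lie outside the naming rule. ABCC5, ABCC6 and ABCC10 stayed between 2.02 and 9.66 TPM. ABCC6 shares its sequence with a near-identical copy, ABCC6P2, listed at 3.84 to 7.24 TPM, so its values are uncertain.

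ABCA3 was the most abundant lipid exporter by geometric mean. It was at 10.8, 23.8 and 8.34 TPM in A549-GFP and at 15.4, 14.6 and 21.2 TPM in A549-TIPARP, and A549-GFP replicate 2 was the highest of the 6 libraries. The difference was 0.38 on the log2 scale, ranging from 0.069 to 0.82 with 1 library left out.

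ABCA2, a lipid transporter of endosomes and lysosomes at chr9:137007234-137028915 (minus strand, hg38), was at 9.15, 7.29 and 8.87 TPM in A549-GFP and at 10.3, 9.66 and 10.9 TPM in A549-TIPARP. The lines did not overlap, and A549-GFP replicate 2 was the lowest library. The difference was 1.23-fold, with an unadjusted p of 0.228 by limma. With the libraries rescaled by their median ratios, the lines of ABCA2 overlapped.

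ABCA12, which loads lipids into the lamellar granules of the epidermis and lies at chr2:214931542-215138626 (minus strand, hg38), was at 1.49, 7.96 and 1.17 TPM in A549-GFP and at 1.35, 1.35 and 1.14 TPM in A549-TIPARP. A549-GFP replicate 2 was far above the other 5 libraries, which were all near the floor. The difference of -0.91 on the log2 scale was -0.05 without that library. It was -1.26 and -1.43 without A549-GFP replicate 1 or 3. By limma the unadjusted p was 0.199 with all 6 libraries.

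ABCG1, which passes cholesterol to high-density lipoprotein, behaved in a like way. It was at 2.35, 19.7 and 3.12 TPM in A549-GFP and at 3.49, 3.63 and 6.66 TPM in A549-TIPARP, with A549-GFP replicate 2 above all others. The difference was -0.26 on the log2 scale with all libraries and 0.70 without A549-GFP replicate 2. It was -0.84 and -0.63 without A549-GFP replicate 1 or 3. Together the 10 lipid and sterol exporters, 7 of them above the floor, summed to 30.9, 77.4 and 29.8 TPM in A549-GFP and 40.7, 39.5 and 57.3 TPM in A549-TIPARP.

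ABCD3, which carries branched-chain fatty acids and bile acid precursors into peroxisomes, was at 55.0, 43.3 and 38.4 TPM in A549-GFP and at 36.0, 42.3 and 35.7 TPM in A549-TIPARP. Only A549-TIPARP replicate 2 reached into the range of A549-GFP, and the difference was -0.25 on the log2 scale. With 1 library left out it lay between -0.37 (A549-GFP replicate 3 removed) and -0.11 (A549-GFP replicate 1 removed). On the log2(TPM + 1) scale the 95% interval of limma ran from -0.70 to 0.20. How reads matching several genes were assigned is not given in the sources used here.

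Of the mitochondrial members, ABCB6, linked to porphyrin transport, was at 49.6, 47.9 and 51.8 TPM in A549-GFP and at 42.3, 49.9 and 41.1 TPM in A549-TIPARP, a difference of -0.17 on the log2 scale with A549-TIPARP replicate 2 inside the range of A549-GFP. It ranged from -0.25 to -0.11 with 1 library left out. The 95% interval of limma ran from -0.55 to 0.23. The summed level of ABCB6, ABCB8 and ABCB10 was 97.3, 82.2 and 90.0 TPM in A549-GFP and 84.8, 90.2 and 73.2 TPM in A549-TIPARP.

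The soluble members that act in translation had lower means in A549-TIPARP for 4 of 4 genes, none of which passed the test, where 59.9% of all tested entries had a lower mean. Without A549-TIPARP replicate 3 it was 3 of 4, with ABCF1 at 0.017 on the log2 scale. ABCE1, which splits ribosomes after termination, was at 73.1, 49.1 and 46.7 TPM in A549-GFP and at 46.7, 54.1 and 30.5 TPM in A549-TIPARP. The lines overlapped, and the difference was -0.37 on the log2 scale with an unadjusted p of 0.207 by limma. It was -0.13 without A549-TIPARP replicate 3 and -0.17 without A549-GFP replicate 1.

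ABCF1, which binds initiation factor eIF2, was at 53.4, 52.4 and 50.0 TPM in A549-GFP and at 49.3, 55.9 and 38.2 TPM in A549-TIPARP. ABCF2 was at 62.0, 34.3 and 55.1 TPM in A549-GFP and at 45.4, 46.7 and 35.8 TPM in A549-TIPARP. ABCF3 was at 33.8, 36.1 and 30.6 TPM in A549-GFP and at 28.9, 34.0 and 28.3 TPM in A549-TIPARP. The lines overlapped for all 3, with differences of -0.14, -0.21 and -0.14 on the log2 scale. With 1 library left out ABCF2 lay between -0.46 (A549-GFP replicate 2 removed) and -0.038 (A549-GFP replicate 1 removed), and ABCF3 between -0.23 (without A549-TIPARP replicate 2) and -0.086 (without A549-GFP replicate 2). A549-TIPARP replicate 3 was the lowest library of its line for all 4 translation genes, as it was for 46.9% of all tested entries. ABCE1 overlaps ANAPC10 and OTUD4 on the opposite strand, and ABCF2 overlaps ABCF2-H2BK1 on its own strand. Among the other members above the floor, coding genes overlap ABCB1, ABCB9 and ABCC10 on the opposite strand. On their own strand they overlap ABCB6, ABCA5 and ABCA10. Libraries were made with a stranded kit, while the use of strand in counting is not given in the sources used here.

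Of the remaining members, ABCD4, which moves cobalamin out of lysosomes, was at 13.3 to 21.8 TPM over the 6 libraries, and ABCB9, a lysosomal peptide transporter, at 3.14 to 6.96 TPM. ABCC9, a regulatory subunit of ATP-sensitive potassium channels, was at 3.31 to 6.60 TPM. ABCB4, a phosphatidylcholine floppase, was above the floor at 2.38 TPM in A549-GFP replicate 2 and 1.11 TPM in A549-TIPARP replicate 3. Over the 15 tested members outside the naming rule, differences ran from -0.37 to 0.38 on the log2 scale, and the lowest unadjusted p by limma was 0.256.

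The spread among libraries was shared by many members. A549-GFP replicate 2 was the highest of the 6 libraries for 14 of the 27 tested members, where it was so for 52.0% of all tested entries, and the lowest for 3, where it was so for 13.1%. It exceeded the mean of the other A549-GFP libraries by more than 1 on the log2 scale for 10 members (37.0%, beside 18.0% of all tested entries). Over entries with TPM above 2 in a library other than A549-GFP replicate 2 and A549-TIPARP replicate 3, this held for 7 of 24 members (29.2%, beside 15.4% of all such entries). A549-TIPARP replicate 3 was the highest library of its line for 15 members (55.6%, beside 35.5% of all tested entries). For 11 members A549-GFP replicate 2 was highest of the 6 libraries and A549-TIPARP replicate 3 highest of its line. This was 40.7% of the members, beside 22.2% of all tested entries. Of the 24 members it held for 9 (37.5%, beside 21.2%). Among the 11 were ABCC3, ABCG1, ABCB1, ABCA3, ABCA5 and ABCC10. ABCF2, ABCB10 and ABCB6 lay on the opposite side, with both of these libraries the lowest of their line.

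**Figure D3:**
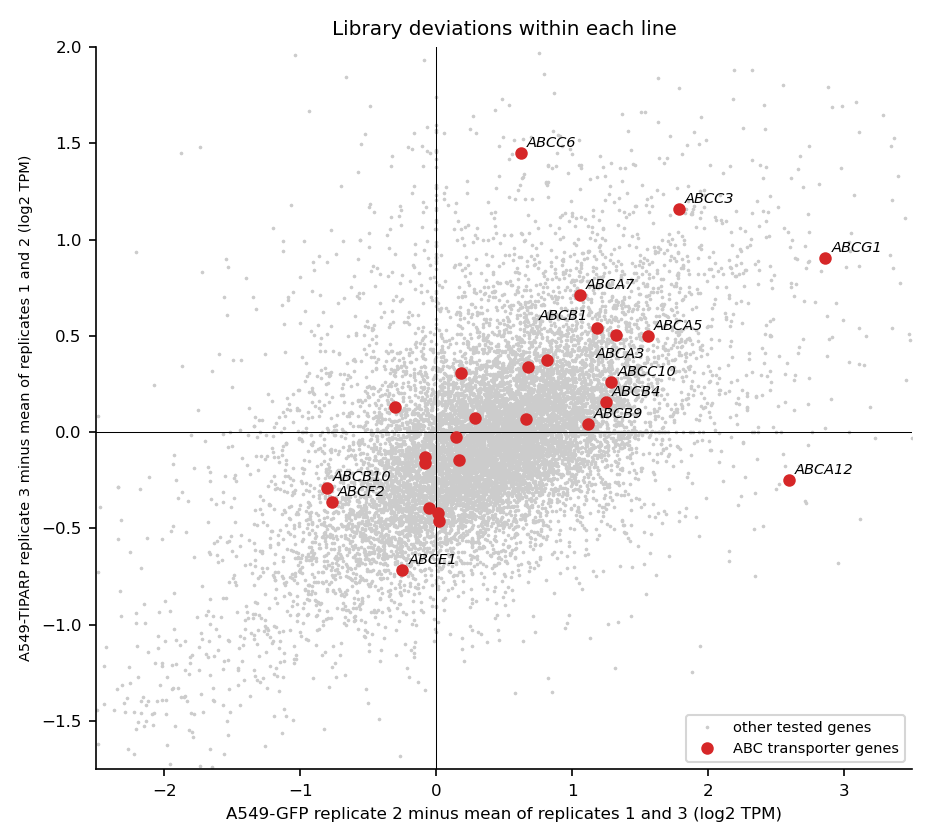
Deviation of A549-GFP replicate 2 from the mean of the other A549-GFP libraries (horizontal, log2 TPM) against that of A549-TIPARP replicate 3 from the mean of the other A549-TIPARP libraries (vertical, log2 TPM), for the tested genes (grey) and the 27 ABC transporter genes (red). ABCG1, ABCA12 and ABCC3 lie farthest to the right, and 203 grey points lie outside the axes.

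Leaving out A549-GFP replicate 2 changed the counts of members higher in A549-TIPARP more than leaving out any other library did. Without it, 9 of the 27 members were higher in all A549-TIPARP libraries than in the 2 remaining A549-GFP libraries, where 21.2% of all tested entries were, and ABCF2 was lower in all of them, where 6.42% were. Past 1.5-fold in the higher direction were 6 members (ABCA3, ABCA7, ABCB1, ABCC3, ABCC4 and ABCG1), where 9.20% of all tested entries were. The median difference was 0.07 over the members and 0.05 over all tested entries, so its sign was the opposite of that with all 6 libraries in both.

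Without this library limma gave 4 members at an unadjusted p under 0.05 (ABCA3, ABCB1, ABCB9 and ABCF2), where 10.5% of all tested entries were, and 0 at an adjusted p under 0.05. On the log2 scale the differences were 0.82 for ABCA3, 0.81 for ABCC3, 0.70 for ABCA7 and 0.66 for ABCB1. ABCF2 differed by -0.46. For ABCC4 the difference ranged from 0.35 to 0.72 with 1 library left out. Its lines did not overlap with all libraries, so its direction could not turn. The unadjusted p of limma was then under 0.05 only without A549-GFP replicate 1.

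**Figure D4:**
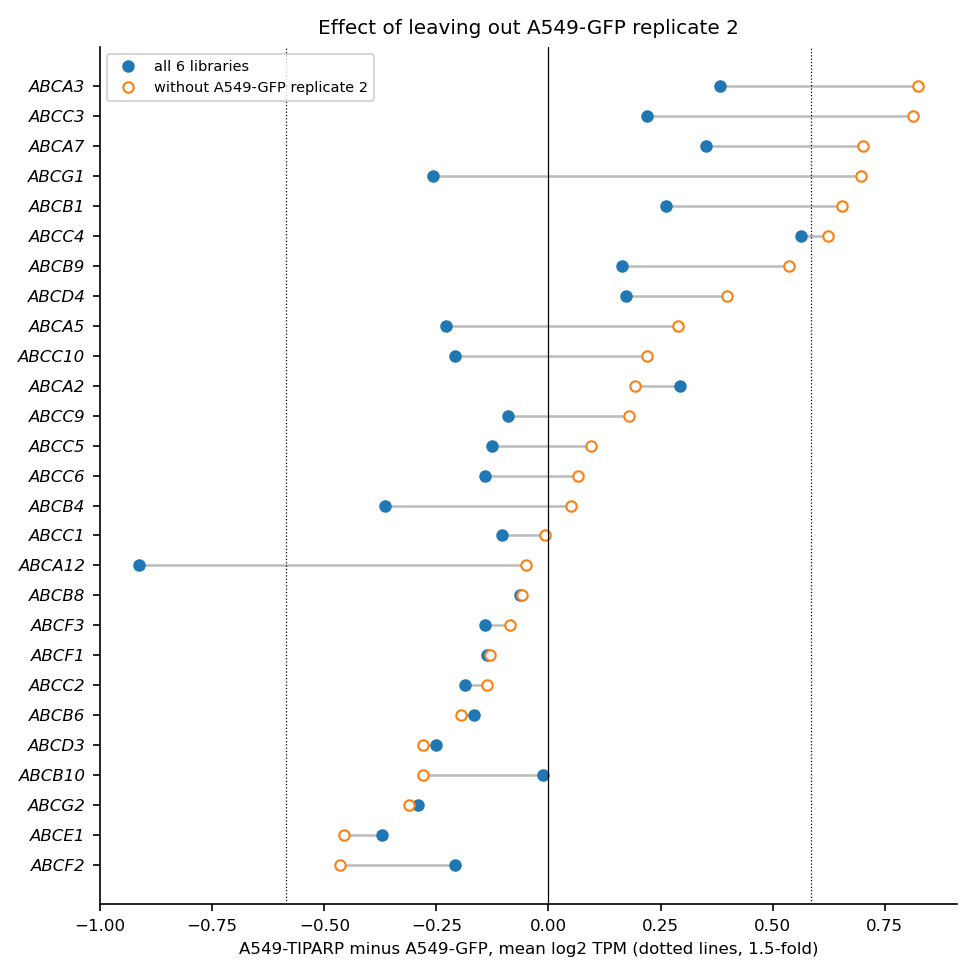
Difference in mean log2 TPM (A549-TIPARP minus A549-GFP) of the 27 tested ABC transporter genes with all 6 libraries (filled) and without A549-GFP replicate 2 (open), with dotted lines at 1.5-fold. ABCA12, ABCG1, ABCC3 and ABCA5 move farthest, and ABCC4 is among several members above 0 in both.

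Genes that work with the transporters or control them were read in the same way. The list held 3 ABC proteins with other symbols, 15 partners and 12 regulators, of which 25 of 30 genes were tested. None passed the adjusted test by limma and none had an unadjusted p under 0.05, beside 3.85% of all tested entries, the smallest being 0.118. The mean was higher in A549-TIPARP for 7 and lower for 18, where 59.9% of all tested entries had a lower mean. The median difference was -0.15 on the log2 scale, beside -0.066 over all tested entries. The lines did not overlap for 1 of the 25 genes, where 5.36% of all tested entries were higher and 3.54% lower without overlap. The gene was SREBF2, a master regulator of cholesterol synthesis, at 69.3, 66.2 and 60.8 TPM in A549-GFP and at 78.0, 69.8 and 79.2 TPM in A549-TIPARP.

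Among the ABC proteins with other symbols, TAP1 and TAP2, which feed peptides to MHC class I, were above the floor in every library, and the chloride channel CFTR was at the floor in every library. TAP1 was at 13.5, 25.0 and 14.1 TPM in A549-GFP and at 14.4, 18.2 and 14.5 TPM in A549-TIPARP. The lines overlapped.

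Of the receptors that control transporter genes, AHR, the aryl hydrocarbon receptor, was at 17.3, 23.4 and 10.7 TPM in A549-GFP and at 10.8, 10.9 and 12.4 TPM in A549-TIPARP. The difference was -0.52 on the log2 scale with an unadjusted p of 0.119 by limma, and A549-GFP replicate 3 lay below all A549-TIPARP libraries. With 1 library left out it lay between -0.83 (A549-GFP replicate 3 removed) and -0.26 (A549-GFP replicate 2 removed). The xenobiotic receptors NR1I2 and NR1I3 were at the floor in all 6 libraries.

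The liver X receptor genes NR1H3 and NR1H2 were both above the floor throughout. NR1H3 was at 14.3, 23.6 and 20.4 TPM in A549-GFP and at 18.0, 19.0 and 36.5 TPM in A549-TIPARP. APOE, an apolipoprotein that accepts cholesterol and a known target of these receptors together with ABCA1 and ABCG1, was at 3.02, 37.2 and 4.43 TPM in A549-GFP and at 7.77, 5.28 and 17.9 TPM in A549-TIPARP. As with ABCG1, A549-GFP replicate 2 was the highest of the 6 libraries and A549-TIPARP replicate 3 the highest of its line. This held for 22.2% of all tested entries, and a part of these receptors in it was not tested.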

How the data were processed

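RNA-seq libraries were 3 of A549-GFP cells and 3 of A549-TIPARP cells. The authors aligned paired-end reads to the human transcriptome (hg38, named in the submitters' processing notes) with Strand NGS at default parameters, and deposited for each library the log2 of the TPM of each gene, floored at 0 (1 TPM). No counts were given, and the software version, the gene annotation and the handling of reads matching several genes are not given in the sources used here.

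Lines and replicate numbers were taken from the sample titles. An entry was tested if any library had it above 2 TPM (13181 entries), the filter the authors used. Folds are differences of mean log2 TPM. Tests used limma 3.58.1 in R 4.3.3 on log2(TPM + 1), floor entries at 1 TPM, with a variance trend, two-sided, and Benjamini-Hochberg adjustment over all tested entries. A count test (planned if counts were given) was not run. The script was tested on simulated data.

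The main test was planned without a block, and the experiment number entered only as an alternative. Deviations of same-numbered libraries had correlations from -0.486 to 0.415 (mean -0.143). With 3 libraries per line these cannot show whether the numbers mark pairs. Members and gene lists were chosen with earlier results of these data known. Values in every library are given for members with an unadjusted p under 0.05, with lines that did not overlap or past 1.5-fold, and for the 10 most abundant members. Alternatives were rescaling by the median ratio, other filters, pseudocounts and means, no variance trend, a replicate block and each library left out. Removal of A549-GFP replicate 2 and A549-TIPARP replicate 3 together was chosen after seeing the data. Coordinates are those of GENCODE 44 on hg38. Of the entries the symbol rule finds, 2 are not reported here.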

Additional observations from a re-analysis of the deposited data

How the results depend on the processing

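The number of ABC transporter genes with an adjusted p under 0.05 by limma was 0 under every alternative run, and the median difference of the members turned from -0.14 to 0.07 without A549-GFP replicate 2 and to 0.06 with that library and A549-TIPARP replicate 3 both removed. With 1 library left out at a time, the number of members at an unadjusted p under 0.05 ranged from 0 (without A549-GFP replicate 3 or any A549-TIPARP replicate) to 4 (without A549-GFP replicate 2) and was 1 without A549-GFP replicate 1, where the share of all entries ranged from 1.92% to 10.5% and was 8.23% without A549-GFP replicate 3. The members higher in A549-TIPARP without overlap ranged from 2 to 9, beside 6.53% to 21.2% of all entries, and those lower from 0 to 5, with 4 without A549-GFP replicate 3 (14.8%, beside 23.5% of all entries) and 5 without A549-TIPARP replicate 2 (18.5%, beside 7.97%). Past 1.5-fold, the higher ranged from 0 to 6 (6.05% to 9.20% of all entries) and the lower from 0 to 2 (2.53% to 10.5%). ABCC3 ranged from -0.17 to 0.81 on the log2 scale, negative also at -0.051 and -0.10 without A549-GFP replicate 1 or 3, and ABCF1 from -0.26 to 0.017. TIPARP ranged from 3.69 to 4.50.

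After rescaling, 1 member was higher without overlap and 1 was higher past 1.5-fold (3.70% each, beside 6.96% of all entries each). Past 1.5-fold, the lower were 0 with TPM above 2 required in at least 3 libraries (2.40% of all entries) and 2 by arithmetic means of TPM (5.67%). The unadjusted count was 0 without the filter (4.46% of all entries) and 0 without the variance trend (4.07%). For TIPARP, still 4.11, the adjusted p was 0.0965 without the filter and 0.0550 on log2(TPM + 0.1). Under a replicate block by experiment number the unadjusted count was 0 (3.14% of all entries), and TIPARP, at 4.11, had an adjusted p of 0.513. The block changed no other call. With A549-GFP replicate 2 and A549-TIPARP replicate 3 both removed, the unadjusted count was 4 (9.31% of all entries), the higher and lower without overlap were 10 and 1 (26.5% and 8.64%), the higher and lower past 1.5-fold were 1 and 0 (6.91% and 1.41%), ABCF1 and ABCA12 were at 0.024 and 0.034, and TIPARP was at 4.44 (adjusted p 0.287). The fits with fewer libraries or without the filter rest on fewer samples or more entries, and for the other settings the cause was not tested. The adjusted p of ABCC4 was 0.484 or higher under all alternatives run. Count-based tests were not run because the tables hold no counts, and with unknown depth the precision of members near the floor cannot be given.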
